A study of Homo sapiens with 6 samples.

Results

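Ubiquitin-conjugating enzymes (gene symbols starting with UBE2) and ubiquitin-specific proteases (USP followed by a number and at most 1 letter) were read from a table of gene expression in T47D, an oestrogen receptor-positive human cell line from a breast ductal carcinoma. The members were taken by symbol alone, leaving aside UBE2C, UBE2T, UBE2L6 and USP18. They came to 80 of the 17758 genes in the table, 30 of class UBE2 and 50 of class USP. RNA selected by its poly(A) tail was sequenced from 3 libraries of shCUEDC1 cells, stably carrying lentiviral short hairpin RNA against CUEDC1, and from 3 libraries of shNC cells, stably carrying a non-targeting lentiviral hairpin. Both groups therefore carried a lentivirus and a hairpin and differed in its target. CUEDC1 encodes a protein with a CUE domain, a small fold that binds ubiquitin. How many hairpins against CUEDC1 were used is not stated, and off-target effects cannot be told apart from the loss of CUEDC1. The libraries of a group are described as biological replicates, with no word on separate infections, so the p-values below measure the spread between these libraries.

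Ubiquitin is attached to proteins in a relay. An activating enzyme (E1) charges ubiquitin, a conjugating enzyme (E2) takes it over on a cysteine, and a ligase (E3) brings the charged E2 to the substrate, with the E2 often setting which kind of chain is built. USPs are the largest family of the proteases that take ubiquitin off again, cutting with an active-site cysteine.

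CUEDC1 itself stood at 31.4, 33.8 and 31.98 CPM in shCUEDC1 libraries 1, 2 and 3, against 110, 109 and 93.3 CPM in shNC libraries 1, 2 and 3. CPM are estimated counts scaled to a common library size by TMM. It fell by 68.9% (95% interval -72.3% to -65.0%; edgeR quasi-likelihood adjusted p = 9.27e-06). The libraries held 18924327 to 19731609 estimated reads each. Library shNC 3 stood apart from its group: the SD of the log2 difference between 2 libraries, over genes with at least 10 CPM, was 0.236 and 0.256 for shNC 3 against shNC 1 and shNC 2, and 0.107 between those 2. Pairs of shCUEDC1 libraries gave 0.117 to 0.124. Between the groups, shNC 1 and shNC 2 against shCUEDC1 libraries gave 0.231 to 0.239, and shNC 3 against them 0.261 to 0.272. By this measure shNC 3 lay about as far from its own group as shNC 1 and shNC 2 lay from the shCUEDC1 libraries. The 9 luminal breast markers examined were present at mean levels of 19.8 to 2073 FPKM (fragments scaled to gene length and library size). Their summed level was 6075 to 6203 FPKM in shCUEDC1 libraries and 4871 to 6225 FPKM in shNC libraries. Among them KRT8 stood at 1232 FPKM in shNC 3, against 1997 and 2022 FPKM in shNC 1 and shNC 2. The 11 markers of leukocytes, endothelium, fibroblasts and basal epithelium summed to 5.65 to 6.02 FPKM in shCUEDC1 libraries and 5.34 to 7.14 FPKM in shNC libraries. Of the 14 markers with enough reads, edgeR and limma-voom called 0 and DESeq2 called 1, at an adjusted p below 0.05, with 2 unadjusted p-values below 0.05 in edgeR. Without shNC 3 edgeR called 4 of these 14, and 28.1% of all genes tested. ESR1, PGR and FOXA1 were then higher in shCUEDC1 cells and TP63 lower. In bulk RNA a change in the number of cells that express a gene and a change in RNA per cell cannot be told apart.

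Most members stayed within narrow limits, and 8 moved. In shCUEDC1 cells USP53, USP54 and UBE2E1 rose, and those that fell included USP16, USP2, UBE2A and UBE2Q2. The called log2 differences, shCUEDC1 over shNC, lay between -0.46 for USP2 and 0.60 for USP53. Of the 80 members 74 had enough reads to be tested, 29 of class UBE2 and 45 of class USP. A call needed an edgeR adjusted p below 0.05 over all 13824 genes tested, and 9.96% of those genes met it (5.19% higher and 4.77% lower in shCUEDC1 cells). Among UBE2 members 4 of 29 did (13.8%, 1 higher and 3 lower). Among USP members 4 of 45 did (8.89%, 2 higher and 2 lower). Both shares are near that of all genes. The median log2 difference was -0.04 for UBE2 members, 0.02 for USP members and 0.00 for all genes tested.

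**Figure D1:**
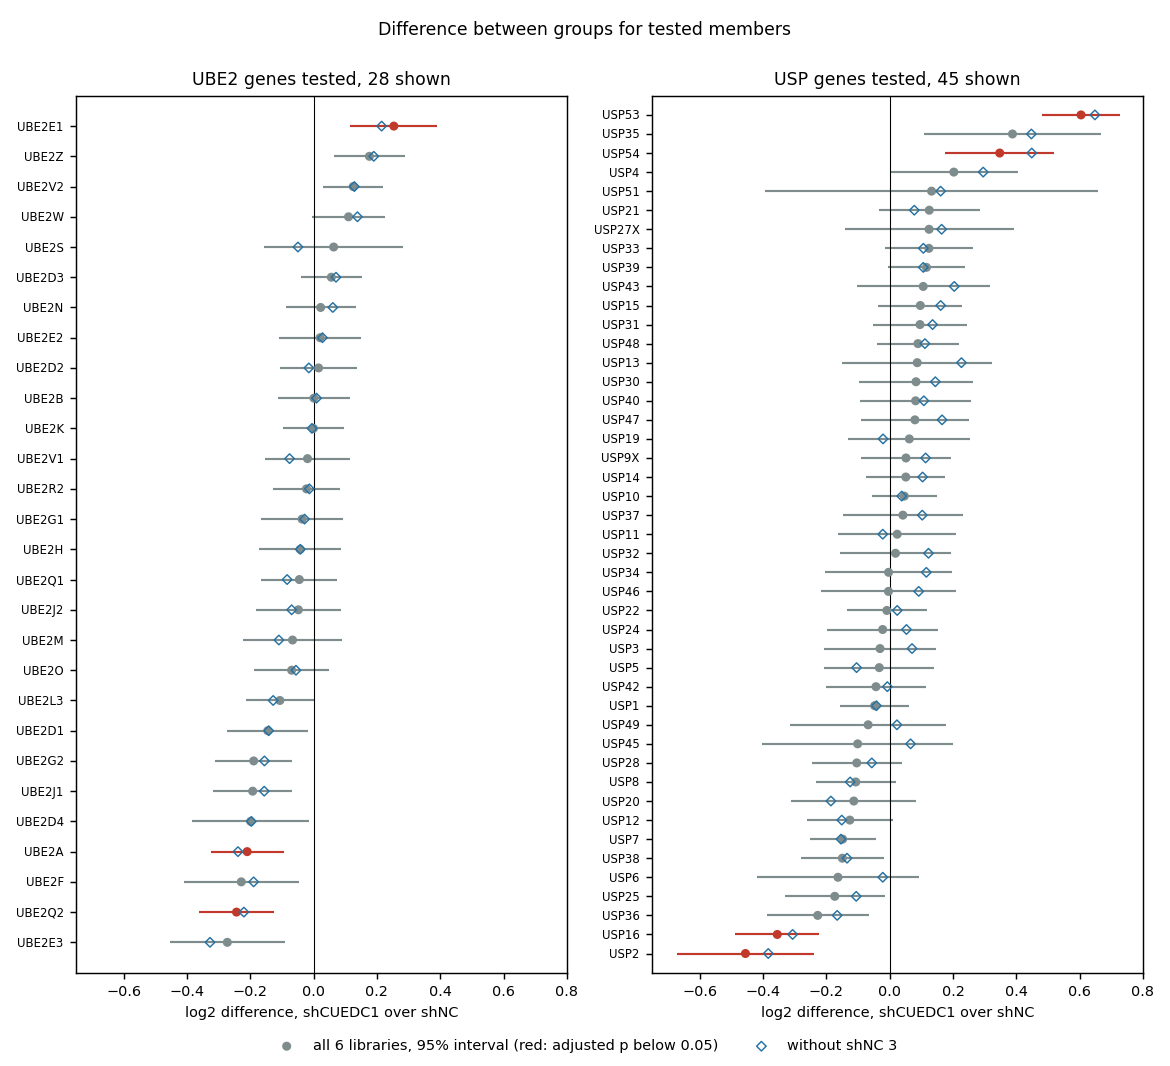
Log2 difference, shCUEDC1 over shNC, of 73 tested members with 95% intervals from edgeR on all 6 libraries, called members in red, and open diamonds for the value without shNC 3. The called values run from -0.46 for USP2 to 0.60 for USP53, and most other intervals include 0.

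The sizes were smaller than those of the genes at large. Over 1.2-fold, in either direction, were 6 of the 74 tested members (8.11%; 1 UBE2 and 5 USP), against 22% of all genes tested. The whole 95% interval lay within 1.25-fold of no change for 55 of 74 members (74.3%; 23 UBE2 and 32 USP), against 48.4% of all genes tested. The members were also better measured: their median level was 16.7 FPKM against 9.40 FPKM for all genes, and the median distance from the estimate to the end of its 95% interval was 0.138 against 0.193 on the log2 scale. How far the narrower spread follows from the higher level was not tested. CPM ranges of the groups did not overlap for 15 of 29 UBE2 members (51.7%; 4 higher, 11 lower) and 16 of 45 USP members (35.6%; 7 higher, 9 lower), against 31.3% of all genes tested.

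The stretch of coding sequence around the catalytic cysteine is shown for called members and the relatives they are set beside. It shows how alike these genes are at that site. Each line gives 33 bases of the coding strand, 5′ to 3′, on GRCh38 (GENCODE v29), with the cysteine codon in capitals.
USP53: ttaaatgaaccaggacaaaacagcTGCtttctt
USP54: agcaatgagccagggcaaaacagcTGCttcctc
USP16: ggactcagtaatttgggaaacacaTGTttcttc
USP3: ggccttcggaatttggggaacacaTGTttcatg
USP2: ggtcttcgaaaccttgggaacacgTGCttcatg
UBE2A: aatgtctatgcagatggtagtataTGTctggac
UBE2B: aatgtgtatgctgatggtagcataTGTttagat
UBE2E1: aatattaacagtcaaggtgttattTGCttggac
UBE2E2: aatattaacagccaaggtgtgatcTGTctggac
UBE2E3: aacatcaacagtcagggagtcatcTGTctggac
The USP53 stretch lies at chr4:119239856-119239888 on the plus strand and the USP54 stretch at chr10:73575527-73575559 on the minus strand. Those of USP16 (chr21:29037416-29037448), USP3 (chr15:63558133-63558165), UBE2E1 (chr3:23889142-23889174), UBE2E2 (chr3:23532584-23532616) and UBE2E3 (chr2:181060695-181060727) are each within 1 coding exon on the plus strand. The stretches of UBE2A (chrX:119581593-119582616, plus strand), UBE2B (chr5:134380805-134388353, plus strand) and USP2 (chr11:119359652-119360207, minus strand) are joined across an intron. The cysteine is residue 88 in UBE2A and UBE2B, 131 in UBE2E1, 41 in USP53 and 42 in USP54.

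USP53 and USP54 differed from each other at 7 of the 33 bases. USP16 and USP3 also differed at 7, and so did USP3 and USP2. Against the 37 other USP members in which the stretch was found, USP53 differed at 16 to 24 bases and USP54 at 14 to 23. All 37 of those begin with a glycine codon, and USP53 and USP54 do not. UBE2A and UBE2B differed at 6 bases, UBE2E1 and UBE2E2 at 5, and UBE2E1 and UBE2E3 at 8. Over the aligned coding sequence UBE2A and UBE2B were 80.4% identical, UBE2E1 and UBE2E3 78.2%, UBE2Q1 and UBE2Q2 75.6%, USP53 and USP54 70.5%, and USP16 and USP3 67.2%. None of the called members shared an exact run of 100 transcript bases with another gene. The cysteine was found from the translated sequence, as the first one after a histidine, proline or cysteine, asparagine motif in UBE2 members and between asparagine with threonine or serine and an aromatic residue in USP members. It was located in this way in 21 of 30 UBE2 and 39 of 50 USP members. The others include UBE2Q2, for which no stretch is shown.

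UBE2D and UBE2E enzymes are the broad-specificity E2s that work with many ligases, and 1 of the 7 rose. UBE2E1 stood at 75.0, 82.1 and 80.1 CPM in shCUEDC1 libraries, against 69.6, 67.0 and 62.4 CPM in shNC libraries. The lowest shCUEDC1 library was above the highest shNC library. The rise was 0.25 on the log2 scale (SE 0.0617, 19.2%; edgeR adjusted p = 0.0300). That call was lost in 5 of 6 fits with a library left out (edgeR adjusted p up to 0.149) and with the replicate number as a block (edgeR adjusted p = 0.0581). Its close relative UBE2E3 had 31.7, 32.99 and 34.9 CPM in shCUEDC1 libraries, against 44.4, 39.1 and 36.8 CPM in shNC libraries. The groups did not overlap in this gene either, with the shCUEDC1 libraries on the low side, but the difference of -0.27 missed the threshold (edgeR adjusted p = 0.0639). UBE2E2, which lies beside UBE2E1 on chromosome 3, differed by 0.02, with overlapping groups. UBE2D3 had the highest level per length of all UBE2 members, 116 ± 2.9 FPKM in shCUEDC1 cells and 113 ± 2.2 FPKM in shNC cells (SD, n = 3 each), and its log2 difference was 0.06 (edgeR adjusted p = 0.475). UBE2D1 and UBE2D4 had differences of -0.15 and -0.20 with groups that did not overlap, and neither was called (edgeR adjusted p = 0.148 and 0.166).

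UBE2A and UBE2B are the human counterparts of yeast RAD6, which ubiquitinates PCNA in DNA damage tolerance and histone H2B, and 1 of them fell. UBE2A stood at 81.3, 83.8 and 83.2 CPM in shCUEDC1 libraries, against 98.9, 96.9 and 91.3 CPM in shNC libraries. Its groups were apart, and it fell by 0.21 on the log2 scale (SE 0.0518, 13.6%; edgeR adjusted p = 0.0314). The UBE2A call was lost in 5 of 6 fits with a library left out (edgeR adjusted p up to 0.140) and with the replicate number as a block (edgeR adjusted p = 0.0633). UBE2B stood at 96.2, 99.7 and 105 CPM in shCUEDC1 libraries, against 100, 99.4 and 101 CPM in shNC libraries. The UBE2B groups overlapped, with an interval from -7.58% to 8.32% around no change. Exons of UBE2A (chrX:119574467-119591083) overlap those of NKRF on the opposite strand over 18.1% of their length. Use of strand in counting is not given in the sources used here, so reads of these 2 genes may not be told apart. NKRF itself differed by -0.05 (edgeR adjusted p = 0.742).

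UBE2F and UBE2M, the E2s for NEDD8, differed by -0.23 and -0.07 and were not called (edgeR adjusted p = 0.111 and 0.611).

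No enzyme of the K48-linked chain and endoplasmic reticulum degradation group was called by edgeR on all 6 libraries, although all 6 had a negative log2 difference and 2 an unadjusted p below 0.05. DESeq2 and limma-voom called none either. With length offsets edgeR called UBE2G2 and UBE2J1 (adjusted p = 0.0498 and 0.0419), as it did without shNC 3 (adjusted p = 0.0118 and 0.0153), and without shNC 2 it called UBE2G2 (adjusted p = 0.0435). The 2 with a low unadjusted p were UBE2G2 and UBE2J1, E2s that serve degradation of proteins from the endoplasmic reticulum. UBE2G2 stood at 89.0, 86.3 and 85.1 CPM in shCUEDC1 libraries, against 100.2, 93.7 and 103 CPM in shNC libraries, a difference of -0.19 (edgeR adjusted p = 0.0549). UBE2J1 stood at 75.8, 75.0 and 70.6 CPM in shCUEDC1 libraries, against 81.3, 83.6 and 88.2 CPM in shNC libraries, also -0.19 (edgeR adjusted p = 0.0578). In both genes the groups were apart. UBE2G1, UBE2J2, UBE2K and UBE2R2 lay between -0.05 and 0.00.

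UBE2N pairs with UBE2V1 or UBE2V2, which lack the catalytic cysteine, to build K63-linked chains, and none of the 3 was called by edgeR, DESeq2 or limma-voom (1 unadjusted p below 0.05 in each). UBE2V2, second in level among UBE2 members, stood at 192, 189 and 191 CPM in shCUEDC1 libraries, against 178, 172 and 175 CPM in shNC libraries. The groups were apart, by 0.12 on the log2 scale (edgeR adjusted p = 0.0996). UBE2N differed by 0.02 and UBE2V1 by -0.02. Exons of UBE2N overlap those of NUDT4 on the opposite strand over 39.5% of their length. NUDT4 was called higher in shCUEDC1 cells, so the UBE2N count is uncertain where use of strand is not known. UBE2V1 shares 54.4% of its 100-base runs with other genes, more with its readthrough gene than with any other, so its count is uncertain.

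Among the other E2s, UBE2Q2 fell and 6 were not called. UBE2Q2 stood at 55.8, 55.8 and 54.6 CPM in shCUEDC1 libraries, against 64.0, 65.5 and 67.4 CPM in shNC libraries. The groups were apart by more than their own spread, with a fall of 0.24 on the log2 scale (SE 0.0529, 15.6%; edgeR adjusted p = 0.0186). UBE2Q2 lost its call without any one shCUEDC1 library and without shNC 1 (edgeR adjusted p up to 0.0956). Its relative UBE2Q1 differed by -0.05, with overlapping groups. UBE2Z, an E2 charged by the activating enzyme UBA6, stood at 212, 233 and 218 CPM in shCUEDC1 libraries, against 194, 194 and 198 CPM in shNC libraries. These groups were also apart, by 0.18, just past the threshold in edgeR (adjusted p = 0.0524) and within it in DESeq2 (adjusted p = 0.0391). UBE2L3, which serves ligases that pass ubiquitin over their own cysteine, differed by -0.11 (edgeR adjusted p = 0.200).

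**Figure D2:**
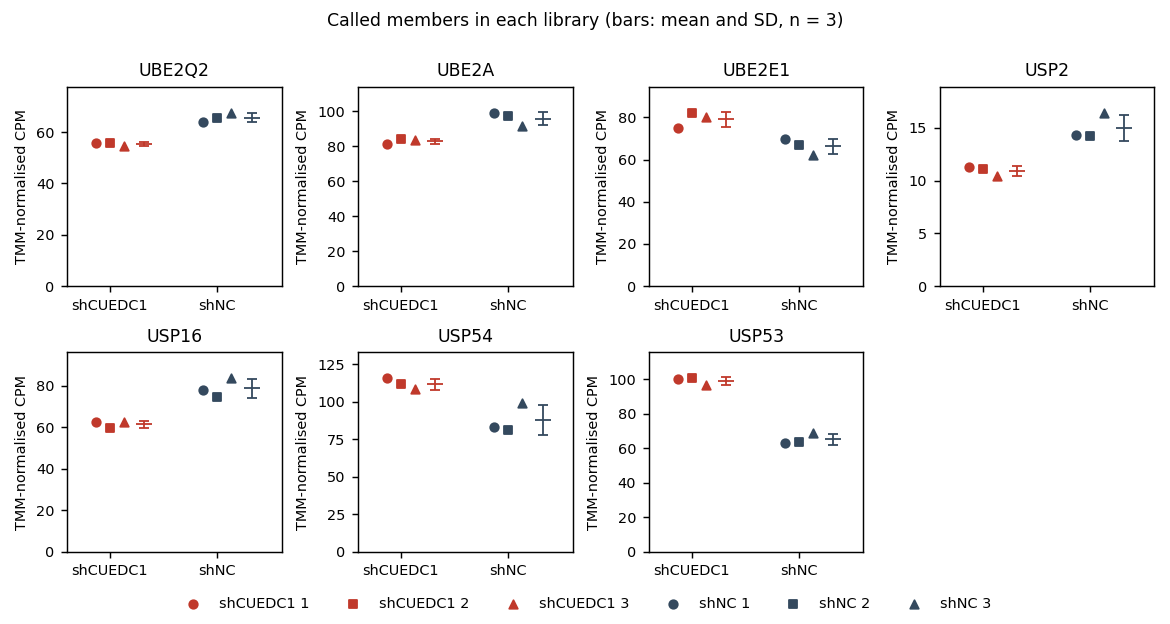
TMM-normalised CPM of 7 called members in each library, with the mean and SD of 3 libraries; all axes start at 0. In each panel the shCUEDC1 and shNC libraries do not overlap, and USP53 shows the widest gap.

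The largest difference among all members was in USP53. USP53 and USP54 were long listed as USPs without activity and were later described as proteases for K63-linked chains. USP53 (chr4:119212587-119295517, plus strand) stood at 100.2, 100.4 and 96.4 CPM in shCUEDC1 libraries, against 63.2, 63.4 and 68.7 CPM in shNC libraries. The gap between the groups was several times the spread inside either. USP53 rose by 0.60 on the log2 scale (SE 0.0547), or 52.1% (95% interval 39.7% to 65.5%; edgeR adjusted p = 2.61e-04). Per length it averaged 16.8 ± 0.39 FPKM in shCUEDC1 cells and 11.2 ± 0.44 FPKM in shNC cells (SD, n = 3 each). It kept its call in all 16 alternative settings, with adjusted p-values from 9.01e-15 to 0.00565 and log2 differences from 0.54 to 0.65.

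USP54 (chr10:73497538-73625953, minus strand) stood at 115.6, 111.7 and 108.3 CPM in shCUEDC1 libraries, against 83.4, 80.9 and 99.5 CPM in shNC libraries. The groups were apart, but shNC 3 lay much nearer to the shCUEDC1 libraries than the other shNC libraries did. USP54 rose by 0.35 (SE 0.0770, 27.2%; edgeR adjusted p = 0.0206). Without shNC 3 the difference was 0.45 (edgeR adjusted p = 5.53e-09). It lost its call when any single library other than shNC 3 was left out (adjusted p up to 0.105), and in limma on log2 FPKM. PPP3CB-AS1 on the opposite strand covers 16.1% of its exon length. USP39, a splicing factor with a USP domain that lacks the catalytic residues, was the third member with an unusual domain. It differed by 0.12 with groups apart and was not called (edgeR adjusted p = 0.220).

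Genes around USP53 were read after their values had been seen. Of 5 genes tested within 500000 bases of it 2 were called, where 9.96% of all genes were. They were PDE5A (0.54, edgeR adjusted p = 0.0346) and SEC24D (0.31, edgeR adjusted p = 0.0108). C4orf3, METTL14 and SYNPO2 were not called (0.10, 0.13 and 1.06; edgeR adjusted p = 0.442, 0.206 and 0.0744). Around USP54 none of 20 tested genes was called by edgeR or limma-voom and 1 by DESeq2, with 5 unadjusted p-values below 0.05 in edgeR and a median of -0.01. Around USP16 none of 6 was called by any of the 3 tools, with 0 such p-values and a median of -0.02. Each of the 3 tools called 1 of 5 tested genes around UBE2E1 and 2 of 18 around USP2. No tool called any of 10 around UBE2A or of 12 around UBE2Q2. Whether the neighbourhood of USP53 differs from others of its size was not tested.

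USP16 is a protease for ubiquitin on histone H2A, and it was the called member of the 6 tested histone and chromatin USPs. It stood at 62.4, 59.6 and 62.6 CPM in shCUEDC1 libraries, against 77.9, 74.7 and 83.6 CPM in shNC libraries. The groups were well apart. USP16 (chr21:29024629-29054488) fell by 0.36 on the log2 scale (SE 0.0592), or 21.8% (95% interval -28.7% to -14.3%; edgeR adjusted p = 0.00542). It kept its call in 15 of 16 settings and missed the threshold without shCUEDC1 2 (edgeR adjusted p = 0.0510). USP3, which also acts on H2A, stood at 64.1, 66.0 and 66.1 CPM in shCUEDC1 libraries, against 60.8, 64.1 and 75.6 CPM in shNC libraries. Its groups overlapped. USP22, the protease of the SAGA coactivator complex, averaged 44.7 ± 2.9 FPKM in shCUEDC1 cells and 45.6 ± 1.8 FPKM in shNC cells (SD, n = 3 each), an interval from -9.01% to 8.53%. USP27X, USP49 and USP51 differed by 0.12, -0.07 and 0.13 on the log2 scale.

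USP2, a USP with reported targets that include cyclin D1 and MDM2, was the member with the largest fall. It stood at 11.3, 11.1 and 10.4 CPM in shCUEDC1 libraries, against 14.4, 14.3 and 16.4 CPM in shNC libraries. The groups did not overlap. The fall was 0.46 on the log2 scale (SE 0.0967), or 27.1% (95% interval -37.2% to -15.3%; edgeR adjusted p = 0.0170). Its level was low, at 3.96 ± 0.29 FPKM in shCUEDC1 cells and 5.58 ± 0.57 FPKM in shNC cells (SD, n = 3 each). The call was lost without any one shCUEDC1 library (edgeR adjusted p up to 0.0896). An opposite-strand gene covers 17.5% of its exon length.

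None of the 5 genome maintenance and p53-pathway USPs was called by edgeR, DESeq2 or limma-voom, and 1 had an unadjusted p below 0.05 in each. That was USP7, the protease that stabilises MDM2 and p53. USP7 stood at 197, 186 and 185 CPM in shCUEDC1 libraries, against 215, 208 and 208 CPM in shNC libraries. The groups were apart by -0.15 (edgeR adjusted p = 0.0744). USP10, a p53 protease and the USP member with the highest level per length, averaged 61.9 ± 0.97 FPKM in shCUEDC1 cells and 60.7 ± 2.1 FPKM in shNC cells (SD, n = 3 each). Its interval was -3.85% to 10.9%. USP1, which acts on FANCD2 and PCNA, USP28 and USP47 differed by -0.05, -0.10 and 0.08.

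The remaining role groups of the USPs held no call by edgeR, DESeq2 or limma-voom, and at most 1 unadjusted p below 0.05 in each. They were the proteasome and free-chain USPs (USP5, USP13, USP14), the related USP4, USP11 and USP15, USP12 and USP46, 7 membrane, receptor and organelle USPs, and the large USP9X, USP24 and USP34. Their log2 differences lay between -0.16 for USP6 and 0.20 for USP4. USP9X stood at 219, 214 and 196 CPM in shCUEDC1 libraries, against 198, 191 and 219 CPM in shNC libraries. Here shNC 3 stood beside the highest shCUEDC1 library, and the groups overlapped. Among the 13 other tested USPs, USP2 was the called one and USP35 had the largest positive difference (0.39, edgeR adjusted p = 0.0836), at 7.24, 7.37 and 6.43 CPM in shCUEDC1 libraries, against 5.16, 5.14 and 5.77 CPM in shNC libraries.

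Counting both classes, 8 more members had an edgeR adjusted p between 0.05 and 0.1. The share of all genes tested in that band was not counted, so this number is a description only. UBE2Z, USP35 and UBE2V2 were higher in shCUEDC1 cells. UBE2G2, UBE2J1, UBE2E3, USP7 and USP36 were lower.

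**Figure D3:**
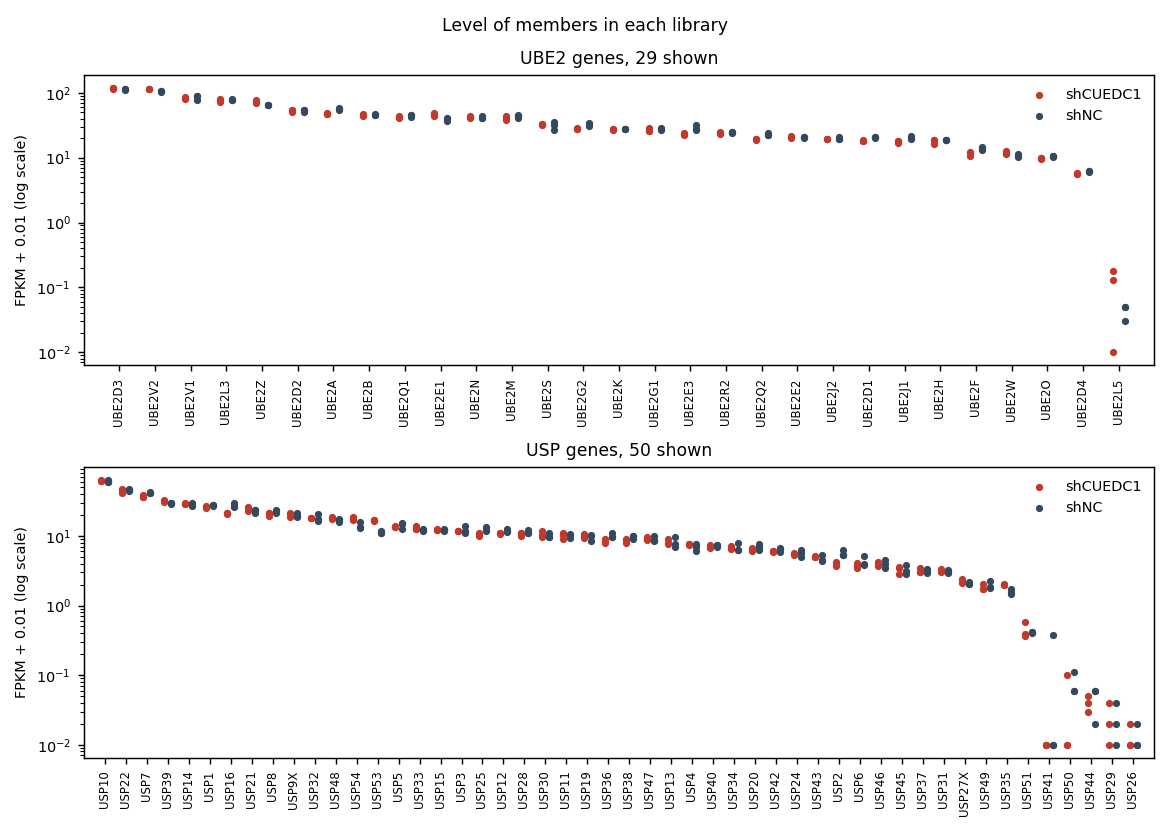
FPKM + 0.01 of 79 listed members in each library, on a log axis, UBE2 above and USP below, ordered by mean level, with 3 shCUEDC1 points left of 3 shNC points for each gene. The groups lie close together for most members, with UBE2D3 highest at a mean of 115 FPKM. Genes with a handful of reads scatter more. UBE2L5 had 0.17, 0 and 0.12 FPKM in shCUEDC1 libraries, against 0.04, 0.02 and 0.04 FPKM in shNC libraries.

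Over all 6 libraries the summed level of a class did not separate the groups. UBE2 members summed to 1168 to 1202 FPKM in shCUEDC1 libraries and 1193 to 1226 FPKM in shNC libraries. These ranges overlapped through shNC 3 alone (1193 FPKM). The UBE2 sums of shNC 1 and shNC 2 (1226 and 1221 FPKM) lay above those of every shCUEDC1 library. USP members summed to 593 to 623 FPKM in shCUEDC1 libraries and 602 to 633 FPKM in shNC libraries, also overlapping. The median level of a tested member was 30.1 FPKM for UBE2 and 10.1 FPKM for USP. By level over all 6 libraries the first UBE2 members were UBE2D3 (115 FPKM) and UBE2V2 (110 FPKM), and the first USP members USP10 (61.3 FPKM), USP22 (45.2 FPKM) and USP7 (39.7 FPKM).

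The 6 untested members were UBE2L5, USP26, USP29, USP41, USP44 and USP50. UBE2L5, 97.6% identical to UBE2L3 in coding sequence, had 9.20, 0 and 6.28 estimated reads in shCUEDC1 libraries, against 2.15, 0.98 and 2.25 in shNC libraries. USP41 had 0 in all shCUEDC1 libraries, against 0, 0 and 6.66 estimated reads in shNC libraries 1, 2 and 3, and 31.8% of its 100-base runs are shared, most of them with USP18. A count of 0 allows up to 3 counts, or 0.151 to 0.157 CPM in these libraries, for counting error alone. No difference was detectable at this depth for any of the 6.

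Related members can be compared as a ratio inside each library, which cancels a factor that acts on both genes alike. For USP53 over USP54 the log2 ratio of CPM averaged -0.18 ± 0.03 in shCUEDC1 libraries and -0.43 ± 0.09 in shNC libraries, a difference of 0.25. For UBE2A over UBE2B it averaged -0.28 ± 0.05 in shCUEDC1 libraries and -0.07 ± 0.07 in shNC libraries, a difference of -0.21. For UBE2E1 over UBE2E3 it averaged 1.252 ± 0.06 in shCUEDC1 libraries and 0.73 ± 0.07 in shNC libraries, a difference of 0.52 and the widest of the 6 pairs (SD, n = 3 each throughout). The differences for UBE2E1 over UBE2E2, UBE2Q2 over UBE2Q1 and USP16 over USP3 were 0.23, -0.20 and -0.33. In all 6 pairs the groups did not overlap, but each pair was built on a called member whose own groups were apart. The share of other gene pairs with groups apart was not counted, so this is a description only. The exact two-sided permutation p was 0.1 for each and 0.1 after adjustment over the 6, the smallest that 3 against 3 libraries can give, and the pairs were chosen after their values were seen.

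**Figure D4:**
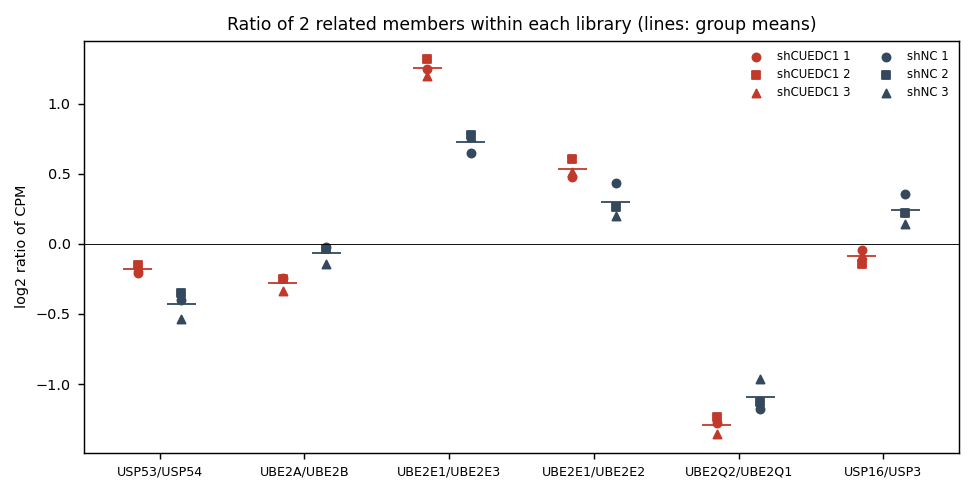
Log2 ratio of the CPM of 2 related members in each library, shCUEDC1 left of shNC for each of 6 pairs. UBE2E1 over UBE2E3 shows the widest gap, 1.252 on average in shCUEDC1 libraries and 0.73 in shNC libraries.

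More genes were called throughout the table without library shNC 3, members of both classes among them. Without it edgeR called 28.1% of all genes tested, 11 of 29 UBE2 members (4 higher, 7 lower) and 14 of 45 USP members (8 higher, 6 lower). The UBE2 members called there and not with all libraries, in order of p, began with UBE2E3 (-0.33), UBE2Z (0.19), UBE2G2 (-0.16), UBE2J1 (-0.16), UBE2V2 (0.13) and UBE2L3 (-0.13). Among USP members they began with USP4 (0.30), USP13 (0.23), USP7 (-0.15), USP15 (0.16), USP35 (0.45) and USP47 (0.17). USP13, a relative of the free-chain protease USP5, stood at 60.4, 53.8 and 57.1 CPM in shCUEDC1 libraries, against 51.0, 46.8 and 63.5 CPM in shNC libraries. The first 2 shNC libraries lay below every shCUEDC1 library, and shNC 3 lay above them.

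Library shNC 3 was high in USP members as a class. Its log2 deviation from the mean of shNC 1 and shNC 2 had a median of 0.13 over the 45 tested USP members, 34 of them above 0, against 0.00 over UBE2 members (15 of 29 above 0) and 0.00 over all genes. USP transcripts are long: the gene length implied by the deposited counts and FPKM had a median of 4618 bases for USP members, 2639 for UBE2 members and 2967 for all genes tested. Over 12964 genes with such a length, that deviation had a median of -0.08 in the shortest group of equal size, -0.01 in the middle and 0.08 in the longest, and 31 of the 45 USP members lay in the longest. The rank correlation of length and deviation was 0.60 over the 74 members and 0.26 over the 12964 genes, as a description, since all points share the same libraries. Class and length go together among the members and cannot be told apart here. The cause of the deviation was not tested. The group difference itself followed length weakly, with rank correlations of 0.13 over the members and -0.05 over all genes. With offsets for length, added after seeing the data, 8 of 29 UBE2 members and 4 of 45 USP members were called, against 12.1% of all genes in that fit.

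**Figure D5:**
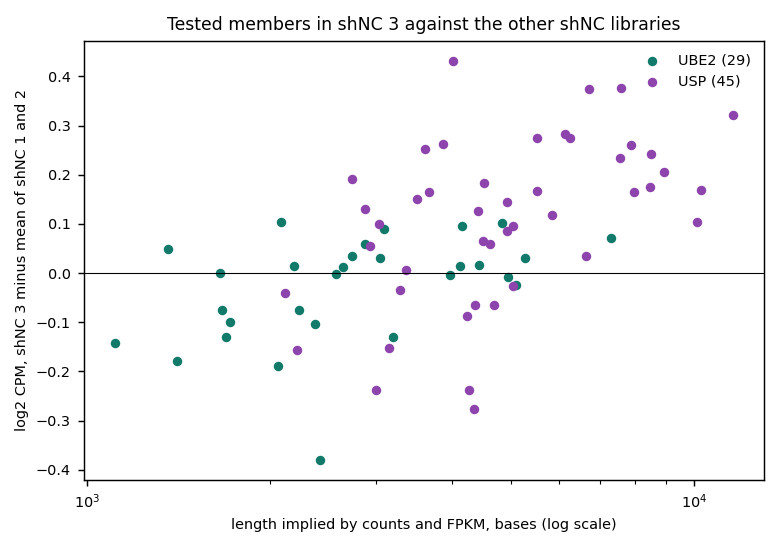
Log2 CPM of library shNC 3 minus the mean of shNC 1 and 2, against implied gene length in bases (log axis), for 29 UBE2 and 45 USP members. Longer members, mostly USPs, tend to lie above 0, with a rank correlation of 0.60.

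Of the 6 other lists of ubiquitin-system genes, 3 held no called gene. None of 10 E1 activating enzyme genes was called by edgeR, DESeq2 or limma-voom (1 unadjusted p below 0.05 in each), and their median log2 difference was -0.01. None of 8 E2s without a UBE2 symbol was called by these tools, with 3, 1 and 3 unadjusted p-values below 0.05, and a median of -0.07. None of 14 USP partner proteins was called either, with 1, 0 and 1 such p-values, and a median of 0.01.

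Of 14 ubiquitin and ubiquitin-like proteins 2 rose and 2 fell, 28.6% of the list against 9.96% of all genes, with a median of 0.01. NEDD8, the modifier that UBE2M and UBE2F attach to cullins, stood at 70.2, 69.4 and 74.1 CPM in shCUEDC1 libraries, against 53.8, 52.5 and 54.2 CPM in shNC libraries. The groups were far apart, and the rise was 0.41 (SE 0.0543; edgeR adjusted p = 0.00192), a call kept without any 1 library. MAP1LC3B, which is attached to autophagosome membranes, fell by 0.24 (edgeR adjusted p = 0.00812), and UFM1, the modifier of the ufmylation pathway, fell by 0.22 (edgeR adjusted p = 0.0407). GABARAP, a relative of MAP1LC3B named after its values were seen, rose by 0.18 (edgeR adjusted p = 0.0407). MAP1LC3B lost its call without shCUEDC1 1 or shCUEDC1 2 (edgeR adjusted p up to 0.0607). UFM1 lost its call in 5 of 6 fits with a library left out (edgeR adjusted p up to 0.174) and GABARAP in 4 of 6 (up to 0.161), and both lost it with the replicate block (edgeR adjusted p = 0.0829 and 0.0785).

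Of 38 tested deubiquitinases of other families 2 rose, 5.26% of the list against 9.96% of all genes, with a median of -0.03. OTUB2, of the OTU family, rose by 0.44 (edgeR adjusted p = 0.0118), and MINDY1, a protease for K48-linked chains, by 0.29 (edgeR adjusted p = 0.0119). Both calls were lost without shCUEDC1 2 or shCUEDC1 3, and that of MINDY1 also without shCUEDC1 1 (edgeR adjusted p up to 0.0735 for OTUB2 and 0.0802 for MINDY1). Of 28 E2 partner proteins 2 rose, 7.14% of the list against 9.96% of all genes, with a median of -0.02. TRIM21, an antibody-binding ligase, rose by 0.22 (edgeR adjusted p = 0.0453) and kept that call in 7 of 16 settings.

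A start region of 300 bases (250 before to 50 after the gene start, RefSeq, GRCh38.p14) was matched for 62 of the 80 members. The GC box GGGCGG, searched on both strands, was in 87.0% of 23 tested UBE2 and 83.8% of 37 tested USP start regions, against 68.1% of those of 11118 tested genes. The median GC content was 73.0%, 70.0% and 65.0% in the same order. A match is a description and not a site in use.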

How the data were processed

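RNA levels were measured in 3 shCUEDC1 and 3 shNC libraries of T47D cells. The authors deposited an estimated count per gene and library, unscaled and partly fractional, under a read count name per the file headers. They also deposited FPKM, which corrects those counts for length and depth. TPM and a signal of counts over size factors, both deposited by the authors, were not used. The submitters' processing notes name the build GRCh38, patch p13. Which aligner and counter were used, and whether strand was read, is not given in the sources used here.

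Counts were rounded, filtered with filterByExpr (minimum count 10), scaled by TMM and compared with edgeR 4.0.16 (robust quasi-likelihood F test) in R 4.3.3, fitted on the whole table with Benjamini-Hochberg adjustment over all 13824 genes tested. Alternatives were RLE size factors, no filter, a filter of 1 CPM in 3 libraries, DESeq2 1.42.0, limma-voom and limma-trend on log2 FPKM with pseudocounts 0.5 and 1 (limma 3.58.1), unrounded counts, a replicate block, each library left out, and length offsets (loess, span 0.5) added after seeing the data. The code was tested on simulated data. The depth was 18924327 to 19731609 estimated reads per library.

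Members, role groups and lists were chosen with earlier results of these data known. Named in each class are the called members, the 3 with the highest FPKM, the largest differences in each direction, and up to 6 called without shNC 3 only. In each other list up to 3 called genes are named. A few genes these rules take count in the totals but are not reported here. Further members are named by role or relation, after their values were seen. Positions, exons and coding sequence are from GENCODE v29, start regions from RefSeq.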

Additional observations from a re-analysis of the deposited data

How the results depend on the processing

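CUEDC1 kept its direction and its call in all 16 settings, with log2 differences from -1.75 to -1.62. Over all genes the count of calls was 468 to 3925 with a library left out, lowest without shCUEDC1 2 and highest without shNC 3. It was 513 without shCUEDC1 1, 519 without shCUEDC1 3 and 688 without shNC 1. UBE2 members called were 4 in the fit as reported, 1 with the replicate block and 8 with length offsets. With a library left out they were 0 to 11: none without shCUEDC1 1, shCUEDC1 2, shCUEDC1 3 or shNC 1 (9, 10, 11 and 11 unadjusted p-values below 0.05, edgeR), 2 without shNC 2 and 11 without shNC 3. USP members called were 1 to 14, with 2 without shCUEDC1 1, 1 without shCUEDC1 2, 2 without shCUEDC1 3 and 14 without shNC 3. The median of USP members changed sign without shCUEDC1 1 (-0.02) and without shNC 1 (-0.0010). It was 0.08 without shNC 3, against 0.02 in the fit as reported. The calls of UBE2A, UBE2E1 and USP54 each held in only 1 of 6 fits with a library left out, that without shNC 3. UBE2Q2 held in 2, USP2 in 3, USP16 in 5 and USP53 in 6. UBE2A and UBE2E1 also lost their calls with the block, and USP54 in both limma-trend fits. The sign of USP22 turned with length offsets (0.0040), without shCUEDC1 3 and without shNC 3, with a range of -0.0499 to 0.0410 over the libraries left out. That of USP13 turned without shNC 2, with a range of -0.0035 to 0.227. In the other lists, calls came to 1 with length offsets and 0 to 2 with a library left out for the E1 enzymes, 2 with the block and 1 to 5 for the modifiers, 1 with the block and 0 to 3 for E2s without a UBE2 symbol, 0 to 11 for other deubiquitinases, 0 to 5 for USP partners, and 1 with DESeq2, with each limma-trend fit and with the block and 1 to 7 for E2 partners; each highest count came without shNC 3. Deviations of libraries with the same replicate number correlated at -9.8e-06, -0.0035 and -0.0037, and those with different numbers at -0.056 to 0.056. With 3 libraries in each group, these values cannot show whether libraries of the same number were handled together. With the number as a block 1117 genes, 1 UBE2 member and 4 USP members were called. The cause of these shifts was not tested.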
